A study of Mus musculus with 31 samples.

Results

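The heat shock and DnaJ chaperone genes were examined in CPu (caudate putamen, the dorsal striatum) of female mice. They were taken by name, as the protein-coding genes whose symbol begins with Hspa, Hspb, Hspd, Hspe, Hsph, Hsp90, Dnaja, Dnajb or Dnajc. This gave 74 members of the 52636 genes in the table, namely 13 Hspa, 1 Hsph, 3 Hsp90, 4 Dnaja, 13 Dnajb, 28 Dnajc, 10 Hspb, 1 Hspd and 1 Hspe gene. Hspbp1 and Hspbap1 carry the Hspb prefix without being small heat shock proteins, and 14 pseudogenes with these prefixes were left out. RNA-seq values were available for 31 female mice of a C57BL/6NTac Brd1 line, 8 to 11 weeks old. WT and Brd1+/- mice, the latter heterozygous for the bromodomain gene Brd1, were administered vehicle (saline; n = 8 WT, n = 7 Brd1+/-) or the tricyclic antidepressant imipramine (IMN) at 10 mg/kg (n = 8 WT, n = 8 Brd1+/-). By the methods of the study, all mice of this experiment, vehicle administered ones included, were injected under the skin on consecutive days, went through tail suspension, open field and forced swim testing, and were killed soon after the swim, so no group represents an unhandled mouse.

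Heat shock proteins are chaperones that help other proteins fold, keep them from clumping and hand damaged ones over for degradation. The Hsp70 proteins (Hspa genes) bind and release client proteins in cycles of ATP hydrolysis, which DnaJ proteins (Dnaja, Dnajb and Dnajc genes) start and Hsph1 (Hsp110) resets by exchanging the nucleotide, and Hsp90 proteins take over clients at a late stage of folding. Some members are always present, some are induced by heat shock factor 1 under stress, and others serve the endoplasmic reticulum (ER), mitochondria or synaptic vesicles, where neurons depend on them for vesicle release and recycling.

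Expression is given as TPM, which corrects for gene length and brings every mouse to one total, so that different genes can be set side by side. The most abundant member was Hsp90ab1, the constitutive cytosolic Hsp90, with a mean level of 765 TPM over the 31 mice and a range of 606 to 1074 TPM. Hspa8, the constitutive cytosolic Hsp70, had a mean of 497 TPM, and Hsp90aa1, the inducible Hsp90, of 236 TPM. They were followed by the co-chaperone gene Dnajc7 at 193 TPM, Dnajb5 at 182 TPM and Hsp90b1, the ER Hsp90, at 176 TPM. The stress-inducible Hsp70 genes Hspa1a and Hspa1b lay far lower, with highest values of 7.52 and 7.24 TPM in any mouse. Of the members, 5 (Dnajb8, Dnajc22, Dnajc5b, Dnajc5g and Hspb7) did not pass the filter on low values (7 or more of the fitted mice over 0.1 TPM) in any comparison. Dnajc22 and Dnajc5g were listed at 0 TPM in every mouse. The other 69 were tested, or 68 in the comparisons that Hspb2 did not pass.

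**Figure D1:**
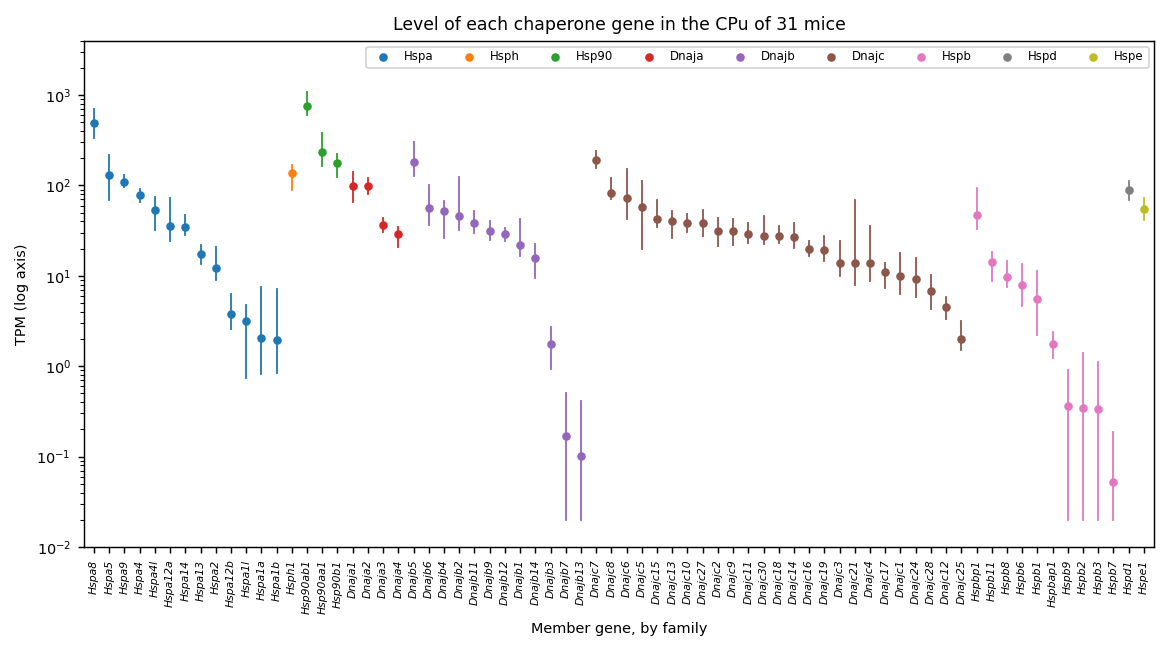
Mean level of each member in TPM (dots, log axis) with the range over the 31 mice (lines), ordered by family and level. Hsp90ab1 and Hspa8 stand at the top and Hspa1a and Hspa1b near the bottom of the Hspa family; 70 members are drawn, and the 4 with the lowest means are left out. Lines that reach 0 TPM are cut short since a log axis has no 0.

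All members together held 4734 ± 472 TPM in WT and 4054 ± 180.2 TPM in Brd1+/- mice given vehicle (SD, n = 8 and 7). Mice given IMN held 4011 ± 398 TPM if WT and 3694 ± 274 TPM if Brd1+/- (SD, n = 8 each). These sums ranged from 0.331% to 0.518% of a mouse's TPM. Vehicle administered WT mice had the highest group mean for 54 of the 69 members that passed the filter over all mice (78.3%, beside 56.8% of all 25394 genes). IMN administered Brd1+/- mice had the lowest mean for 39 of them (56.5%, beside 28.8% of all genes).

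The samples differed in their level of cortical neuron markers, and this moved with the groups. The 10 cortical neuron markers were all above 0.1 TPM in each group and none was at 0, and their summed level ran under vehicle from 12.5 to 2016 TPM in the WT and from 21 to 241 TPM in the Brd1+/- group, and under IMN from 12 to 1099 TPM and from 16.2 to 399 TPM. The mean log2(TPM + 1) of this list was 4.76 or more in 6 of the 8 vehicle administered WT mice and at most 1.01 in mice 6 and 8 of that group. The 10 striatal neuron markers, which define CPu, were also all present in each group, with a summed level of 5050 TPM or more outside vehicle administered WT mice and of 276 to 10474 TPM within that group, where mouse 2 was lowest. Vehicle administered WT mouse 7, labelled female, had 26.8 TPM of Y-linked transcripts, against at most 0.188 TPM in any other mouse. The main counts at p under 0.01 are therefore also given with the cortical list as a covariate. In such tissue samples fewer cells of a type and less RNA per cell cannot be told apart. Brd1 itself stood at 22.5 ± 2.97 and 13.4 ± 2.02 TPM in the WT and Brd1+/- groups under vehicle (SD, n = 8 and 7), and at 19.9 ± 2.67 and 12.8 ± 1.04 TPM under IMN (SD, n = 8 each), with no overlap between genotypes within either treatment (exact permutation tests, p = 0.0001554 each, the smallest these designs allow).

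The comparison of the genotypes under vehicle asks which members changed with reduced Brd1 expression. Of 69 members tested, 17 were lower in Brd1+/- mice and 0 higher at a nominal p under 0.01 in limma, beside 13.6% of all genes tested (12.1% lower), and 28 members, all lower, had p under 0.05, beside 30.9% of all genes. Hspb2 is among these members although it passed the filter on low values only through the WT mice (8 of 8 over 0.1 TPM, against 2 of 7 Brd1+/- mice), so its lower level is set by the filter and is no support for the counts. A negative difference was found for 59 members, beside 72.8% of all genes. At an FDR of 10%, 20 members were lower, beside 20.2% of all genes, and none passed an FDR of 5%, beside 0% of all genes. The counts moved when 1 mouse was left out, and so did those of all genes. The 20 became 0 without WT mouse 1 or 5 or Brd1+/- mouse 1 or 4, beside 0% of all genes in each of these fits. The 0 at an FDR of 5% became 22 without WT mouse 6, beside 19.9% of all genes, and 26 without WT mouse 8, beside 23.8%. Lower members came from Hspa (5 of 13), Dnaja (2 of 4), Hspb (3 of 9), Dnajb (2 of 12) and Dnajc (5 of 25), and none of the 3 Hsp90 genes was among them. The median difference was -0.16 on the log2(TPM + 1) scale for the members and -0.13 for all genes. When TPM was rescaled so that the median gene did not shift, 35 members had a positive and 34 a negative difference, and 6 passed p under 0.01, of which Dnaja1, Hspa12a, Hspa1a and Hspa1b were lower and Dnajc2 higher, the last of the 6 being Hspb2. In that fit 9.2% of all genes passed, so the members' count is no higher than the background. With the cortical list as a covariate 1 member, Dnaja1, passed, beside 2.33% of all genes, and 5 members had p under 0.05, beside 9.02%.

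Under IMN the genotypes differed in 0 of 68 members at p under 0.01 in limma, beside 0.703% of all genes tested, and 3 members (Hspbap1, Dnajc21 and Hspa8, all lower in Brd1+/- mice; Hspbap1 was named after its value was seen) had p under 0.05, beside 3.92% of all genes. Negative differences were found for 50 members, beside 63.3% of all genes. With the cortical covariate 0 members had p under 0.01, beside 0.84% of all genes, and 7 had p under 0.05, beside 4.64%. From vehicle to IMN in WT mice, 12 of 69 members fell and 0 rose at p under 0.01, beside 6.95% of all genes (5.6% lower), and 2 of these, Dnajb5 and Dnajc13, also passed with the cortical covariate, where 1.43% of all genes did. At p under 0.05 it was 21 members, all lower, beside 23.1% of all genes (8 with the covariate, beside 6.69%), and 59 members had a negative difference, beside 67.5%. Members that fell were 3 Hspa, 2 Dnaja, 3 Dnajb, 2 Dnajc and 2 Hspb genes. Hspb2, here too, passed the filter only through vehicle administered mice (8 of 8 over 0.1 TPM, against 2 of 8 given IMN) and is no support. The median difference was -0.20 for the members and -0.08 for all genes. This comparison and that of the genotypes under vehicle share the 8 vehicle administered WT mice. In Brd1+/- mice 4 of 68 members (Dnajc2, Hspa5, Dnajb5 and Hspa8) fell with IMN and 0 rose at p under 0.01, beside 1.83% of all genes (0.964% lower). At p under 0.05 it was 16 members, 15 of them lower, beside 7.09% of all genes, and 44 members had a negative difference, beside 45.6%. The median difference was -0.04 for the members and 0.01 for all genes. The same 4 members passed with the cortical covariate, beside 2.19% of all genes, and after rescaling to the median gene, beside 1.99%. No member passed an FDR of 5% in these comparisons, beside 0.00428%, 0.00424% and 0% of all genes.

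**Figure D2:**
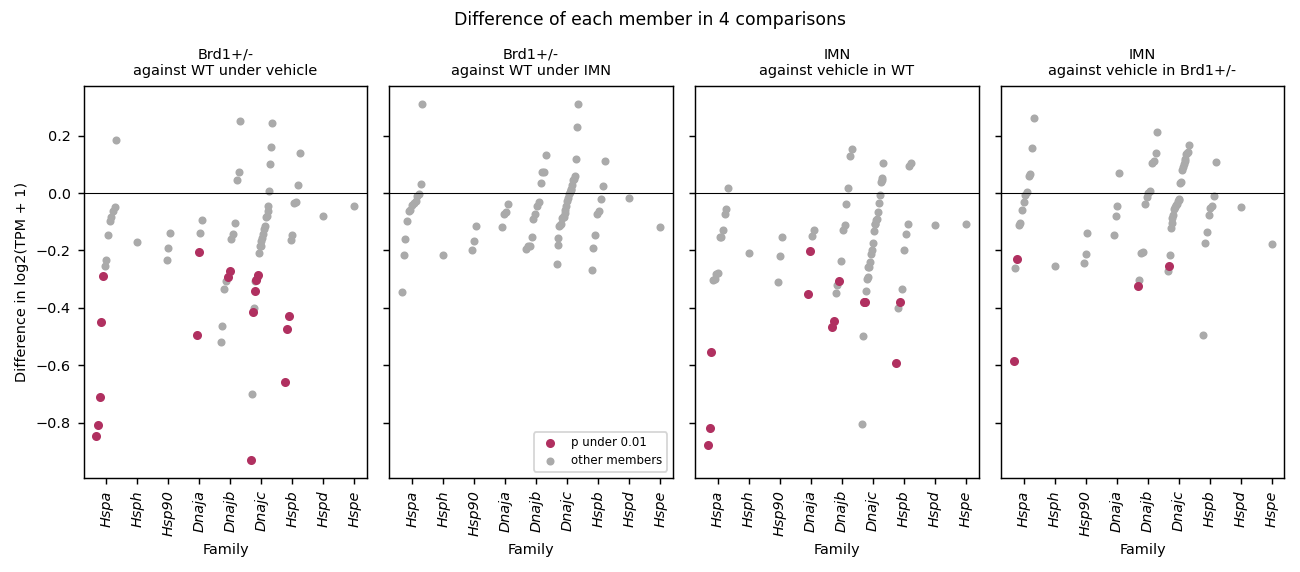
Difference of every tested member in log2(TPM + 1) in 4 comparisons, by family, with members at p under 0.01 (limma) in red. The 17, 0, 12 and 4 members in red, from left to right, all lie below 0.

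Below, a member is said to be lower, to have fallen or to be called where its p in limma was under 0.01, its difference is in log2(TPM + 1), and its adjusted p is over all genes tested. The IMN comparisons in WT and in Brd1+/- mice share no mouse. Of 68 members tested in both, 39 had a negative difference in both genotypes (57.4%, beside 31.1% of 22626 genes) and 5 a positive one in both (7.35%, beside 17.9%). Dnaja3, Dnajb1, Dnajb5, Dnajb11, Dnajc13, Hspa8 and Hsp90ab1 had p under 0.05 and a negative difference in both, which is 7 members (10.3%, beside 0.95% of genes). By families, all 3 Hsp90 genes, Hsph1, Hspd1 and Hspe1 had negative differences in both genotypes, none of them at p under 0.01. These shared signs were not computed with the cortical covariate.

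Among the Hspa genes, Hspa1a and Hspa1b had the largest differences both between the genotypes under vehicle and with IMN in WT mice. They are neighbouring genes on chromosome 17 (Hspa1a at chr17:34969190-34972156, Hspa1b at chr17:34956436-34959238, both on the minus strand in GRCm38) that heat shock factor 1 induces, and 58.8% of the 50-base stretches of Hspa1a transcripts also occur in Hspa1b, so that short reads cannot be split between them with certainty. Hspa1a also overlaps exons of Gm20481 on the opposite strand. RefSeq promoter windows (250 bases before to 50 after a gene's start, GRCm38.p6) were found for 60 of the 74 members. They were searched on both strands for the heat shock element, the binding site of heat shock factors. Its unit is GAA, repeated on alternating strands with 2 bases between. A run of 3 such units, of either kind (GAA first or TTC first), occurred in 4 of the 60 members (6.67%), Dnajb6, Hspd1, Hspe1 and Hsph1, and in 0.662% of the 27025 genes with a window. The shorter run, GAANNTTC or TTCNNGAA, each its own reverse complement, lies within the longer one and was added after the first search. It occurred in 16 of the 60 members (26.7%) and in 17% of these genes. Stretches of 120 bases with such matches in capitals are shown, those of Hspa1a, Hspa1b and Dnaja1 since these members were called, and those of Hsph1 and Hspe1, which were not called in any comparison, as windows with the longer run: Hspa1a at chr17:34972197-34972316 on the minus strand, Hspa1b at chr17:34959279-34959398 on the minus strand, Dnaja1 at chr4:40722288-40722407 on the plus strand, Hsph1 at chr5:149636287-149636406 on the minus strand and Hspe1, with overlapping matches, at chr1:55088008-55088127 on the plus strand.
Hspa1a: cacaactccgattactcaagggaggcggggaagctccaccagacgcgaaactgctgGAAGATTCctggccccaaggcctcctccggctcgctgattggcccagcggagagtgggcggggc
Hspa1b: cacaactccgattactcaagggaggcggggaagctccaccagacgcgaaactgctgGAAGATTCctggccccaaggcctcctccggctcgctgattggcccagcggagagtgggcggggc
Dnaja1: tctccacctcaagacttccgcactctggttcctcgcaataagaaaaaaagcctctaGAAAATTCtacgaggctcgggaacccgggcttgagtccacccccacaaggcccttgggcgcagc
Hsph1: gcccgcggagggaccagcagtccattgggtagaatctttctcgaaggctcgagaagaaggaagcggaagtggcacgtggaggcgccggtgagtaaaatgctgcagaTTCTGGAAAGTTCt
Hspe1: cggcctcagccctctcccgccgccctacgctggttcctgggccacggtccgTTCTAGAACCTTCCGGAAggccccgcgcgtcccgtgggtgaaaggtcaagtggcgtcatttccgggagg
The stretches of Hspa1a and Hspa1b are the same in every letter. Capitals mark the longer run in Hsph1 and Hspe1 and the shorter run in the others. A further match to the shorter run in the Hsph1 stretch is left in small letters. A match describes the letters of a window only.

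The Hspa1a level in vehicle administered WT mice was 1.31 TPM at the lowest, 3.48 at the median and 7.52 at the highest. The corresponding values were 0.823, 1.33 and 2.8 TPM in vehicle administered Brd1+/- mice, 0.858, 1.29 and 2.77 TPM in IMN administered WT mice and 0.896, 1.36 and 2.13 TPM in IMN administered Brd1+/- mice. The other 3 groups thus lay at a like level, and the vehicle administered WT group, though it overlapped them, stood above. Under vehicle Hspa1a was lower in Brd1+/- mice by a log2 difference of -0.85 (SE 0.24, adjusted p = 0.0556), and in WT mice it fell with IMN (-0.82, SE 0.22, adjusted p = 0.141). Hspa1b, the copy, gave -0.81 and -0.88. Because reads are shared, both genes were also added up. Under vehicle the sum was 7.26 ± 3.77 TPM for WT and 2.99 ± 1.35 TPM for Brd1+/- (SD, n = 8 and 7; exact permutation test, p = 0.00901). IMN administered WT mice stood at 2.95 ± 1.46 TPM (SD, n = 8; exact permutation test against vehicle, p = 0.00528). Within the vehicle administered WT group, mouse 2 had the highest Hspa1a level and the highest cortical marker score, and mouse 8 the lowest level and a low score. With the cortical covariate the Hspa1a differences were -0.43 between the genotypes under vehicle and -0.42 for IMN in WT mice, and neither passed p under 0.01.

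Hspa8, which strips clathrin coats from vesicles, had its highest group mean in vehicle administered WT and its lowest in IMN administered Brd1+/- mice. Its level ran from 448 to 707 TPM (median 609.7) in vehicle administered WT mice, from 449.7 to 567 TPM (median 467) in vehicle administered Brd1+/- mice, from 385 to 642 TPM (median 461) in IMN administered WT mice and from 339 to 508 TPM (median 406) in IMN administered Brd1+/- mice. Neighbouring groups overlapped. Hspa8 was lower in Brd1+/- mice under vehicle (-0.29, SE 0.10, adjusted p = 0.0728) and fell with IMN in Brd1+/- mice (-0.23, SE 0.08, adjusted p = 0.519). With IMN in WT mice the difference was -0.30 (SE 0.11, adjusted p = 0.151). The genotype difference under vehicle missed p under 0.01 in 12 of the 15 fits that left out 1 mouse, and the fall in Brd1+/- mice in 8 of 15, as without vehicle administered mouse 5 (-0.19).

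Dnaja1 (chr4:40722150-40737149, plus strand), a DnaJ partner of Hspa8 that is farnesylated, was the only member whose genotypes did not overlap under vehicle, where 0.272% of all genes tested were lower without overlap. Its level was 104 to 140.2 TPM (median 121) in WT and 65.5 to 93.8 TPM (median 89.5) in Brd1+/- mice. The difference was -0.50 (SE 0.09, p = 5.49e-05, adjusted p = 0.0556; exact permutation test of the means, p = 0.000311), -0.31 after rescaling to the median gene (p = 0.00132) and -0.40 with the cortical covariate (p = 0.000771). It passed p under 0.01 in each of the 15 fits that left out 1 mouse. IMN administered WT mice, at 81.1 to 124 TPM (median 88.7), were lower than vehicle administered WT mice (-0.35, SE 0.10, adjusted p = 0.141), and IMN administered Brd1+/- mice lay at 75.5 to 104 TPM (median 90.2). The gene overlaps exons of Smu1 on the opposite strand. Dnaja2, another cytosolic partner of Hspa8, ran from 92.9 to 122 TPM in WT and from 81 to 102 TPM in Brd1+/- mice under vehicle (-0.20, SE 0.07, adjusted p = 0.0708), and this difference was -0.02 after rescaling to the median gene.

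Dnajb1 (Hsp40), the main inducible partner of Hsp70, ran from 18.8 to 42.4 TPM (median 27.5) in vehicle administered WT mice. In IMN administered WT mice it ran from 17 to 23.8 TPM (median 18.8), a fall of 0.47 on the log2 scale (SE 0.13, p = 0.00226; exact permutation test of the means, p = 0.00326). It was not called between the genotypes under vehicle (-0.33, SE 0.14, adjusted p = 0.123) or for IMN in Brd1+/- mice (-0.21, SE 0.09, adjusted p = 0.655). Hsph1, the nucleotide exchange partner, had medians of 159 and 129 TPM in WT and Brd1+/- mice under vehicle and of 143 and 107 TPM under IMN, with wide overlap, and no difference at p under 0.01. The list of heat-inducible members holds Hspa1a, Hspa1b, Hspa8, Hspa4l, Hsph1, Hspb1, Hspd1, Hspe1, Hsp90aa1, Hsp90ab1, Dnaja1, Dnaja4, Dnajb1 and Dnajb4, of which Hspa8 and Hsp90ab1 are also abundant without stress. Of these 14, 4 were lower under vehicle in Brd1+/- mice (Hspa1a, Hspa1b, Hspa8 and Dnaja1) and 4 fell with IMN in WT mice (Hspa1a, Hspa1b, Dnajb1 and Dnaja1), and 1, Hspa8, fell with IMN in Brd1+/- mice, beside 12.1%, 5.6% and 0.964% of all genes lower in these comparisons. With the cortical covariate the counts were 1 (Dnaja1), 0 and 1 (Hspa8), beside 2.33%, 1.43% and 2.19% of all genes called.

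**Figure D3:**
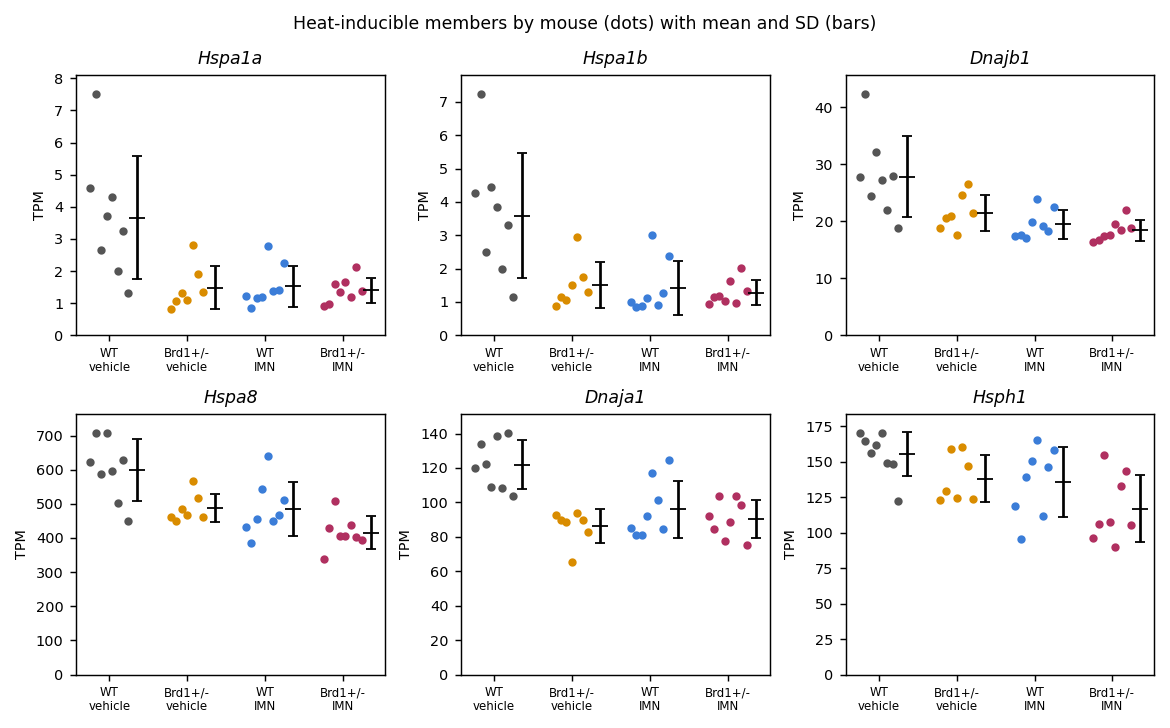
TPM of 6 heat-inducible members in every mouse (dots), with the mean and SD of each group (bars; n = 8, 7, 8 and 8 from left to right). Hspa1a and Hspa1b reach above 3.02 TPM in vehicle administered WT mice only, and the genotypes do not overlap for Dnaja1 under vehicle.

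Of the 13 heat-inducible members paired with Dnajb1, 5 varied with it between mice of the same group by Pearson's r and 8 by Spearman's rho. The share of all genes that vary with Dnajb1 was not computed, so these counts describe the listed pairs only. Hspa1a and Hspa1b share sequence, so their pairs with Dnajb1 are not separate results. Over the 31 mice, each centred on its group mean, Dnajb1 correlated with Hspa1a (r = 0.909, rho = 0.841, permutation p = 1e-05, adjusted p = 6.5e-05 over 13 pairs; 1e-05 is the smallest these permutations give) and with Hspa1b (r = 0.889, rho = 0.818, permutation p = 1e-05). Without the 2 mice farthest from the median of Dnajb1, vehicle administered WT mice 2 and 8, r with Hspa1a was 0.842. Hspa8 followed with r = 0.718 (rho = 0.711, permutation p = 5e-05), Dnaja1 with r = 0.545 (rho = 0.551, permutation p = 0.00114) and Hsph1 with r = 0.493 (rho = 0.510, permutation p = 0.0013), and their r without those 2 mice was 0.640, 0.534 and 0.478. The other 8 pairs did not pass an adjusted p of 0.05 by Pearson's r, and 3 of them passed by rank, Dnaja4 (rho = 0.518, permutation test, adjusted p = 0.0081), Hsp90ab1 (rho = 0.533, adjusted p = 0.00925) and Hsp90aa1 (rho = 0.476, adjusted p = 0.0257). By rank all 3 were lost with median-of-ratios scaling (permutation test, adjusted p = 0.506, 0.466 and 0.389). With the cortical list as a covariate Dnaja4 still passed by rank, while Hsp90ab1 and Hsp90aa1 did not (adjusted p = 0.0594 and 0.422). With median-of-ratios scaling Dnaja1 (r = 0.370, permutation test, adjusted p = 0.0994) and Hsph1 (r = 0.262, permutation test, adjusted p = 0.223) no longer passed, and the other 3 of the 5 did. With the cortical list removed from both genes, r of Dnajb1 was 0.83 with Hspa1a, 0.535 with Hspa8 and 0.352 with Dnaja1, the last no longer passing (adjusted p = 0.0951). Hspb1 (r = 0.623) and Hspe1 (r = 0.624) then passed (permutation test, adjusted p = 0.00133 each), so that 6 pairs did. Within groups, the number of pairs that passed by Pearson's r in WT mice was 3 under vehicle and 5 under IMN, and in Brd1+/- mice 0 under vehicle and 2 under IMN, with 7 or 8 mice a group. By rank, Hspa1b and Hspa8 passed in vehicle administered WT mice and no pair in the other groups. The 5 pairs under IMN in WT mice were Hspa1a, Hspa1b, Hspa8, Dnaja1 and Hsp90ab1. Their r was 0.420, 0.438, 0.671, 0.799 and 0.468 without mice 5 and 8, whose cortical scores were the highest of that group (4.92 and 4.47).

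In the ER, Hspa5 (BiP) is the Hsp70, Hsp90b1 (Grp94) the Hsp90, and Dnajb9, Dnajb11, Dnajc3 and Dnajc10 are DnaJ partners of Hspa5. Several of them are induced by the unfolded protein response, in part through the ER stress element, which is CCAAT and CCACG with 9 bases of any kind between. Searched on both strands, it occurred in windows of 3 of the 60 members with one, Hspa5, Hsp90b1 and Dnajc3, and in those of 0.137% of all genes with a window. The whole window of Hspa5 at chr2:34771840-34772139 on the plus strand is shown since this gene had the largest difference of all members with IMN in Brd1+/- mice, with 120 bases around the matches of Hsp90b1 at chr10:86705483-86705602 on the minus strand and Dnajc3 at chr14:118937776-118937895 on the plus strand, the matches in capitals and read on the reverse strand in Hsp90b1.
Hspa5: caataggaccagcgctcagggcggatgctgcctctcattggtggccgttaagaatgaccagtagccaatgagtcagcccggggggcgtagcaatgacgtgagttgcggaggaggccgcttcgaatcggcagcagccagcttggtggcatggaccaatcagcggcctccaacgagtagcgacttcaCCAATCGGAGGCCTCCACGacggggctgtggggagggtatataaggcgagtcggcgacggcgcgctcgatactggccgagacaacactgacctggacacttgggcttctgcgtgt
Hsp90b1: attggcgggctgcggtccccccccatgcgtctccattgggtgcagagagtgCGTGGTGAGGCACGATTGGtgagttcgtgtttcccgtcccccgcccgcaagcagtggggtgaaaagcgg
Dnajc3: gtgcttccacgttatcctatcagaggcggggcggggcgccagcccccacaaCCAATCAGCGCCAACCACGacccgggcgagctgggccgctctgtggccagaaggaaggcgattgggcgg
Hspa5 (chr2:34771970-34777547, plus strand) ran from 109 to 196 TPM (median 129.8) in vehicle administered and from 68.8 to 148 TPM (median 89.4) in IMN administered Brd1+/- mice. Of the 8 IMN administered mice, 6 lay below every vehicle administered one, and mice 3 and 7, at 143 and 148 TPM, within their range. The fall was 0.58 on the log2 scale (SE 0.18, p = 0.00493, adjusted p = 0.476; exact permutation test of the means, p = 0.0172), and -0.57 with the cortical covariate (p = 0.00476). It did not pass p under 0.01 in 6 of the 15 fits that left out 1 mouse, as without vehicle administered mouse 3 (-0.51). In WT mice Hspa5 ran from 118 to 219 TPM under vehicle and from 74.8 to 165 TPM under IMN, a difference of -0.30 (SE 0.16, adjusted p = 0.271). The difference between the effects in the genotypes was -0.29 (interaction, SE 0.25, adjusted p = 0.581).

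Hsp90b1 had a median of 174 TPM in vehicle administered and 147 TPM in IMN administered Brd1+/- mice (-0.21, SE 0.10, adjusted p = 0.684). It did not pass p under 0.01 with the cortical covariate. With the striatal marker list as a covariate, a setting added after the data were seen, it passed (-0.34), beside 1.48% of all genes. Dnajb11 ran from 38.4 to 52.9 TPM (median 46.6) in vehicle administered WT mice, from 32.2 to 43.8 TPM (median 37) in vehicle administered Brd1+/- mice and from 29.5 to 49.4 TPM (median 36.5) in IMN administered WT mice. It was lower in Brd1+/- mice under vehicle (-0.29, SE 0.08, adjusted p = 0.0556) and fell with IMN in WT mice (-0.31, SE 0.10, adjusted p = 0.141). Dnajb9 (-0.27, adjusted p = 0.0618) and Dnajc3 (-0.41, adjusted p = 0.0658) were lower in Brd1+/- mice under vehicle as well. So 3 of the 7 ER members were called under vehicle, 1 for IMN in WT mice and 1 for IMN in Brd1+/- mice, all lower, beside 12.1%, 5.6% and 0.964% of all genes lower. With the cortical covariate the counts were 0, 0 and 1 (Hspa5), beside 2.33%, 1.43% and 2.19% of all genes called. Hspa13 and Dnajc10 were not called in any comparison.

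**Figure D4:**
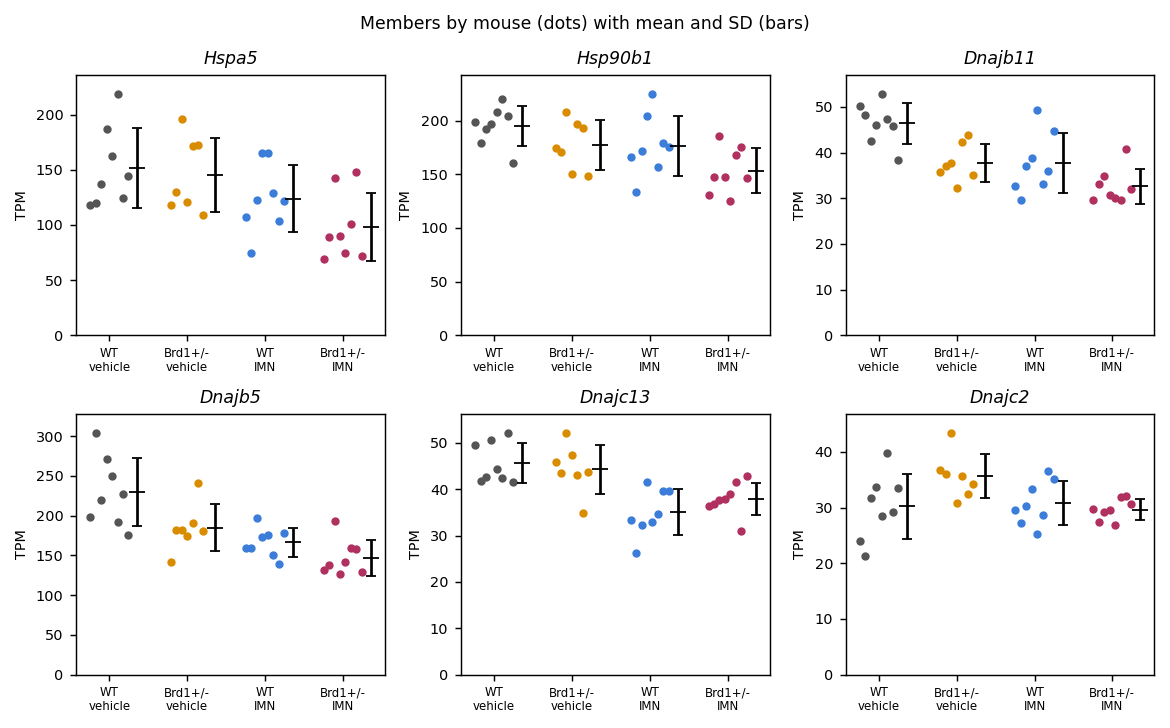
TPM of Hspa5, Hsp90b1, Dnajb11, Dnajb5, Dnajc13 and Dnajc2 in every mouse (dots), with the mean and SD of each group (bars; n = 8, 7, 8 and 8 from left to right). Dnajc13 does not overlap between vehicle and IMN in WT mice, and most Hspa5 values of IMN administered Brd1+/- mice lie below those of vehicle administered ones.

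Dnajb5 (chr4:42949814-42959425, plus strand), a DnaJ protein linked to the nuclear shuttling of histone deacetylases, fell with IMN in both genotypes. In WT mice it ran from 176 to 304 TPM (median 223) under vehicle and from 139 to 197 TPM (median 166) under IMN, a difference of -0.45 (SE 0.11, p = 0.000634; exact permutation test, p = 0.00124). In Brd1+/- mice it ran from 142 to 241 TPM (median 182) under vehicle and from 127 to 193 TPM (median 139) under IMN, a difference of -0.32 (SE 0.10, p = 0.0068; exact permutation test, p = 0.0131). Groups overlapped in both genotypes. With the cortical covariate the differences were -0.31 in WT and -0.32 in Brd1+/- mice. The fall in WT mice passed p under 0.01 in each of the 16 fits that left out 1 mouse. That in Brd1+/- mice did so in 5 of 15, and was -0.26 without vehicle administered mouse 6.

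Dnajc13 (RME-8; chr9:104151282-104262930, minus strand), which works with Hspa8 on endosomes and overlaps exons of Gm37563 on the opposite strand, was the only member without overlap between vehicle and IMN in WT mice, where 0.115% of all genes tested fell without overlap. Its level was 41.7 to 52.1 TPM (median 43.6) under vehicle and 26.3 to 41.5 TPM (median 33.9) under IMN. The difference was -0.38 (SE 0.09, p = 0.000514, adjusted p = 0.141; exact permutation test, p = 0.0001554, the smallest possible), and -0.35 with the cortical covariate (p = 0.00307). In Brd1+/- mice Dnajc13 ran from 34.8 to 52 TPM under vehicle and from 31 to 42.8 TPM under IMN (-0.22, SE 0.08, adjusted p = 0.598). Of the other members of clathrin and vesicle cycling, Dnajc6 (auxilin) ran from 44.5 to 153 TPM in vehicle administered WT mice and from 43.1 to 69 TPM in Brd1+/- mice (-0.70, SE 0.25, adjusted p = 0.0795). Dnajc2 (zuotin), a ribosome-bound DnaJ protein, ran from 30.9 to 43.4 TPM (median 35.7) in vehicle administered and from 26.8 to 32.1 TPM (median 29.6) in IMN administered Brd1+/- mice. Its fall of 0.25 (SE 0.07, p = 0.00196; exact permutation test, p = 0.000777) passed in each of the 15 fits without 1 mouse.

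Further members were lower under vehicle in Brd1+/- mice while their spread in vehicle administered WT mice was wide. Hspa12a, a distant Hsp70 relative of the brain, ran from 26.1 to 72.6 TPM (median 53.7) in WT and from 26.3 to 33.7 TPM (median 28.6) in Brd1+/- mice (-0.71, SE 0.19, adjusted p = 0.0556). WT mouse 2 was highest and mouse 8 lowest for this gene, as for Dnajc21, a ribosome biogenesis factor, which ran from 10 to 69.3 TPM in WT and from 7.85 to 12 TPM in Brd1+/- mice (-0.93, SE 0.30, adjusted p = 0.0644). Hspbp1, a nucleotide exchange factor that inhibits Hsp70, ran from 40.8 to 93.3 TPM in WT and from 34.2 to 49.2 TPM in Brd1+/- mice (-0.47, SE 0.14, adjusted p = 0.0556). Dnajc30, a mitochondrial DnaJ protein whose exons overlap Bud23, gave -0.34 under vehicle and -0.38 for IMN in WT mice (adjusted p = 0.0699 and adjusted p = 0.141). Hspa12a and Hspbp1 fell with IMN in WT mice, too (-0.56 and -0.38). Dnajc8 (-0.29), Dnajc15 (-0.30) and Hspa2 (-0.45) were called under vehicle, of which Dnajc15 and Hspa2 were named after their values were seen. Among small heat shock proteins, Hspb2, which overlaps Cryab on the opposite strand, lay near the detection limit, at 0.113 to 1.4 TPM in vehicle administered WT mice and from 0 to 0.462 TPM in Brd1+/- mice, where the median mouse was listed at 0, and Hspb3 ran to at most 1.1 TPM. Hspb1 (Hsp27) had -0.49 for IMN in Brd1+/- mice (SE 0.20, adjusted p = 0.646).

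Hspa9 (mortalin), the mitochondrial Hsp70, was the least variable of the 55 members above 5 TPM in each group, with a median coefficient of variation of 5.9%, and ranged from 96.8 to 131 TPM over all mice. Hspd1 and Hspe1 (Hsp60 and Hsp10), which are transcribed head to head from neighbouring starts, had group means of 85.6 to 94.1 TPM and 50 to 58.9 TPM and no call in any comparison. Dnaja3 (Tid1), a DnaJ protein of mitochondria, fell with IMN in WT mice from a median of 41.3 to 35.5 TPM (-0.20, SE 0.06, adjusted p = 0.141), and its exons overlap Coro7 and Vasn.

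Of 6 ER members paired with Hspa5, 2 varied with it between mice of a group, a check added after the values were seen. The share of all genes that vary with Hspa5 was not computed, so this count describes the listed pairs only. Its r over the 31 mice was 0.817 with Hsp90b1 (rho = 0.775, permutation p = 1e-05, adjusted p = 6e-05) and 0.607 with Dnajb11 (rho = 0.561, permutation p = 0.0007, adjusted p = 0.0021), and 0.789 and 0.543 without IMN administered Brd1+/- mice 3 and 7. Within the groups r with Hsp90b1 was 0.446 in vehicle administered WT, 0.926 in vehicle administered Brd1+/-, 0.877 in IMN administered WT and 0.910 in IMN administered Brd1+/- mice. Without the 2 mice of each group farthest from its median of Hspa5, r was 0.0195, 0.858, 0.587 and 0.812 in this order. By rank this pair passed within a group only in IMN administered Brd1+/- mice (permutation test, adjusted p = 0.0274). Hspa13, Dnajb9, Dnajc3 and Dnajc10 did not pass an adjusted p of 0.05, and no pair passed within vehicle administered WT mice. With the cortical list removed, Dnajc3 passed by Pearson's r as well (r = 0.431, permutation test, adjusted p = 0.0348) and not by rank (adjusted p = 0.0699).

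**Figure D5:**
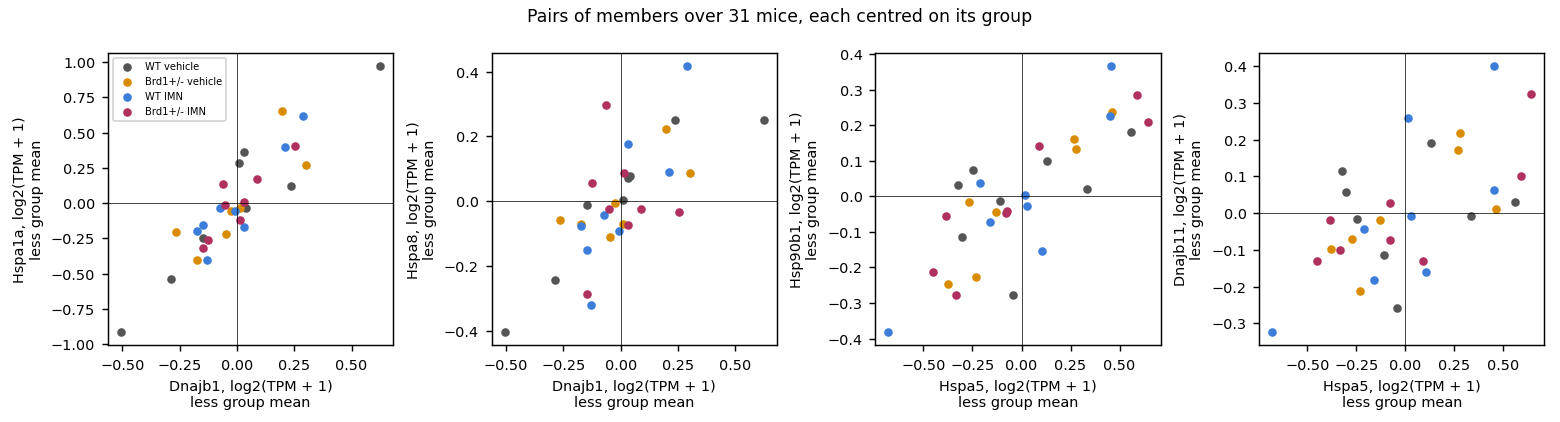
Log2(TPM + 1) of 4 pairs of members in 31 mice (dots, coloured by group), each less the mean of its group. Hspa1a follows Dnajb1 (r = 0.909) and Hsp90b1 follows Hspa5 (r = 0.817) more closely than Hspa8 follows Dnajb1 (r = 0.718) or Dnajb11 follows Hspa5 (r = 0.607).

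The Hsp90 genes, which act on kinases and steroid receptors among other clients, were ordered as the members at large, with the highest group mean in vehicle administered WT and the lowest in IMN administered Brd1+/- mice. Hsp90ab1 had 871 ± 123, 757 ± 51, 744 ± 65 and 687 ± 54.4 TPM (SD, n = 8, 7, 8 and 8) in vehicle administered WT, vehicle administered Brd1+/-, IMN administered WT and IMN administered Brd1+/- mice. Neighbouring groups overlapped, and no comparison passed p under 0.01 (IMN in WT mice -0.22, adjusted p = 0.173; IMN in Brd1+/- mice -0.14, adjusted p = 0.662). Hsp90aa1 had medians of 296, 235, 207 and 196 TPM in the same order, with a range of 165 to 378 TPM in vehicle administered WT mice that covered most of the values of the other groups, and no call.

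The interaction of genotype and IMN was positive at p under 0.01 for 5 of 69 members, Dnaja1 (0.42), Dnajc8 (0.34), Dnajc11 (0.36), Hspa1a (0.79) and Hspb2 (0.71), and negative for 0, beside 3.74% of all genes tested (2.97% positive). At p under 0.05 it was 17 members, 14 of them positive, beside 16.2% of all genes, and 16 members had a negative interaction, beside 32.8%. After rescaling to the median gene 32 members had a positive and 37 a negative interaction. A positive value means that IMN lowered the member less, or raised it more, in Brd1+/- than in WT mice. All 5 had an adjusted p of 0.261, and none passed p under 0.01 after rescaling to the median gene or with the cortical covariate, beside 3.17% and 1.04% of all genes.

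Of the genes that work with these chaperones, heat shock factors and co-chaperones were lower in Brd1+/- mice under vehicle for 9 of 33 tested, with Bag2 (-0.98), Sgtb (-0.46) and the auxilin relative Gak (-0.35) at the smallest p, and higher for 0. Chaperonin and prefoldin subunits were lower for 5 of 14 (Cct2, Vbp1, Pfdn2, Pfdn1 and Pfdn5; differences of -0.27 to -0.38). Genes of the unfolded protein response were lower for 5 of 20 (Pdia6, Ddit3, Atf4, Herpud1 and Eif2ak3) and higher for 1, Sil1, an exchange factor of Hspa5 (0.29). The medians of these lists were -0.21, -0.24 and -0.20, beside -0.13 for all genes, and the share of all genes called was 13.6% (12.1% lower). With the cortical covariate 0 genes of these lists passed p under 0.01 in this comparison, beside 2.33% of all genes. With IMN in WT mice 2, 2 and 5 genes of the lists fell (Gak and Bag1; Pfdn6 and Cct7; Creld2, Atf4, Herpud1, Ddit3 and Sdf2l1) and 1, Trib3, rose (0.78), beside 6.95% of all genes called, and with the cortical covariate only Creld2 passed, beside 1.43%. With IMN in Brd1+/- mice Xbp1 (-0.47, adjusted p = 0.478), a transcription factor that induces Hspa5, and the ER oxidoreductase gene Pdia4 (-0.42, adjusted p = 0.526) fell, beside 1.83% of all genes called, and no gene of the other 2 lists was called. With the cortical covariate Xbp1 passed, Pdia4 did not, and the co-chaperone gene Cdc37l1 passed with a higher level, beside 2.19% of all genes. Names beyond the 3 with the smallest p in a list were added after their values were seen.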

How the data were processed

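CPu was punched from the right hemisphere of frozen sections and sequenced single-end on the BGISEQ-500. Per the labels and the methods of the study, the authors cleaned reads with Trimmomatic, checked them with FastQC, aligned them to GRCm38 with HISAT2 2.1.0 and assembled and quantified them with StringTie 1.3.4, and deposited TPM per gene and mouse. Columns summed to 999787 to 999918 TPM. Strandedness is not given in the sources used here, and TPM keep no read depth, so no counting interval is given. All 52636 genes were read, 52489 with an ID in GENCODE M21, and 0 value columns were left unused.

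A gene was tested where 7 or more of the fitted mice were over 0.1 TPM, on log2(TPM + 1) in limma 3.58.1 (R 4.3.3) with a mean-variance trend, within the 2 groups compared, or all 4 for the interaction. Nominally significant means p under 0.01, and adjusted p-values are Benjamini-Hochberg over all genes tested. The study's edgeR test on counts was not run, since TPM are not counts. Fold changes of low genes are understated on this scale. Permutation tests were two-sided, exact for means of TPM and with 100000 resamples for correlations over 31 mice (scipy 1.17.1, numpy 2.4.6, pandas 2.3.3, Python 3.11.15). The test was tried on simulated data. Named members were, in each family and comparison, up to 3 with the smallest p under 0.01, the 3 most abundant of each family, and the heat-inducible, ER and synaptic lists; of pathway lists, up to 3 with the smallest p under 0.01. The members and lists were chosen with earlier results of these data known. Alternatives were another pseudocount, filters, median-of-ratios and quantile scaling, no trend, 1 fit of 4 groups, a replicate block, sample weights, marker covariates and leaving out mice. By the methods WT and Brd1+/- mice were matched by litter, and which mice shared a litter is not given in the sources used here, so litter is not in the fits.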

Additional observations from a re-analysis of the deposited data

Results flagged for a closer look

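Among 43 named members in 4 groups each, 17 of 172 groups held a mouse that stood far from the rest of its group by Dixon's test at 95%, where chance would flag about 1 in 20 groups. In vehicle administered WT mice, mouse 2 was high for Dnajc21 (69.3 TPM, next mouse 24.3), Dnajc15 (69.5 TPM) and Hspbp1 (93.3 TPM), mouse 1 was high for Hspb8 (14.5 TPM), and mouse 8 was low for Hsph1 (123 TPM). Mouse 2 had the lowest striatal marker score of all mice (3.20) and mouse 8 one of the lowest cortical marker scores of its group (1.01). The part of tissue composition in these values was not tested.

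In vehicle administered Brd1+/- mice, mouse 4 was low for Dnaja1 (65.5 TPM, next mouse 83.0), mouse 5 was high for Hsp90ab1 (864 TPM) and Hspa1b (2.94 TPM), and mouse 6 was high for Dnajc30 (31.8 TPM). In IMN administered WT mice, mouse 5 was high for Dnajc21 (18.1 TPM) and Hspb2 (1.09 TPM), mouse 6 was high for Dnajc8 (88.9 TPM) and mouse 2 was low for Hspe1 (42.9 TPM). In IMN administered Brd1+/- mice, mouse 7 was high for Dnajb11 (40.8 TPM), mouse 4 for Dnajc6 (82.6 TPM) and mouse 3 for Dnajc7 (215 TPM), and mouse 5 was low for Hspa9 (96.8 TPM).

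The effect of IMN differed between WT and Brd1+/- mice, by the interaction test in limma at p under 0.01, for Dnaja1 (0.42), Dnajc8 (0.34), Dnajc11 (0.36), Hspa1a (0.79) and Hspb2 (0.71). None passed an FDR of 5% (adjusted p = 0.261 for all 5). The cortical marker score was 4.76 or more in 6 of the 8 vehicle administered WT mice, which enter this test, and with that score as a covariate the values were 0.31, 0.31, 0.26, 0.45 and 0.49 in the same order, and none was below p of 0.01.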

How the results depend on the processing

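Counts of members at p under 0.01 moved with the processing. Between the genotypes under vehicle, 17 became 6 with median-of-ratios scaling (beside 9.2% of all genes) and 6 with quantile normalization (9.52%). The count became 29 with sample quality weights (26.5%), 1 with the cortical (2.33%) or the striatal covariate (1.48%), and 8 without vehicle administered WT mice 2 and 7 (5.83%). When 1 mouse was left out it was 7 to 24, beside 8.89% to 22.4% of all genes. Counts fell to between 7 and 11 without any 1 of vehicle administered WT mice 1, 2, 3, 4, 5 or 7 or Brd1+/- mice 1, 3, 4, 6 or 7 (8.89% to 12.4%). Under IMN, 0 became 2 (Hspa8 and Dnajc21) with the striatal covariate (beside 0.985% of all genes). Without 1 mouse it was 0 to 1 (0.55% to 1.09%), the 1 arising without Brd1+/- mouse 3. For IMN in WT mice, 12 became 7 with quantile normalization (5.85%), 26 with weights (20.3%) and 2 with the cortical (1.43%) or striatal (1.28%) covariate. The count became 6 without vehicle administered mice 2 and 7 (2.71%). Without 1 mouse it was 7 to 19, beside 3.88% to 15.3% of all genes (19 without vehicle administered mouse 8, 7 without IMN administered mouse 2 or 3). For IMN in Brd1+/- mice, 4 became 2 in 1 fit of all groups (1.17%) and 6 with the striatal covariate (1.48%). Without 1 mouse it was 1 to 7, beside 1.34% to 2.18% of all genes (1 without vehicle administered mouse 3 or 5 or IMN administered mouse 1 or 5, 2 without vehicle administered mouse 6 or IMN administered mouse 4, 7 without IMN administered mouse 7). For the interaction, 5 became 0 with median-of-ratios scaling (3.17%) or the cortical (1.04%) or striatal (0.52%) covariate. The count became 1 with quantile normalization (3.39%), 14 with weights (13.6%), 1 without WT mice 2 and 7 (1.62%), and 1 to 12 without 1 mouse (2.16% to 10.2%). The Dnaja2 difference under vehicle was 0.0014 with quantile normalization. By Pearson's r, members correlated with Dnajb1 numbered 3 rather than 5 with median-of-ratios scaling (Dnaja1 and Hsph1 lost) and 3, 0 and 2 within vehicle administered WT, vehicle administered Brd1+/- and IMN administered Brd1+/- mice. Those correlated with Hspa5 numbered 0, 1 and 1 rather than 2 within vehicle administered WT, vehicle administered Brd1+/- and IMN administered WT mice. The cause was not tested. Mice of the same replicate number in 2 groups had r of their deviations from group means of -0.447 to 0.495. No r of differently numbered mice was computed beside these, so whether the numbers pair mice was not settled. With a replicate block the counts were 18, 0, 8, 4 and 5 in the order above, beside 17.7%, 0.673%, 5.08%, 2.15% and 4.28% of all genes. At an FDR of 5%, the 0 members under vehicle became 7 with a mean of 1 TPM or more (beside 10.5% of all genes), 23 in 1 fit of all groups (19.5%), 17 with the replicate block (15.4%) and 30 with weights (29.5%), and the 0 for IMN in WT mice became 17 in 1 fit of all groups (9.02%), 26 with weights (20.6%), and 8 (5.03%) and 15 (10.5%) without vehicle administered mouse 6 or 8. The 0 of the interaction became 13 with weights (10.3%). The 20 members at an FDR of 10% under vehicle became 4 with median-of-ratios scaling (6.48%) and 5 with quantile normalization (8.32%). They became 0 with either covariate (0% of all genes) or without WT mice 2 and 7 (0.00442%). Without WT mouse 2, 4 or 7 or Brd1+/- mouse 2 or 5 they became 7 to 13 (7.73% to 12.5%). They became 33 without WT mouse 8 (33.9%) and 38 with weights (38.2%). The striatal covariate, the cortical covariate of the correlations, the fits without WT mice 2 and 7 and the settings for Hspa5 were added after the data were seen. TPM give no depth, so the precision of low members such as Hspb2 and Hspb3 is unknown.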

Other observations

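Dnajc5, the cysteine string protein that guards SNAP-25 at synaptic vesicles, was the most variable of the 55 members above 5 TPM, with a median coefficient of variation within groups of 54.7%, beside 13.3% for the median member. It was singled out after its values were seen. Over the 23 mice outside the vehicle administered WT group, 14 had at most 44.2 TPM and 9 at least 84.8 TPM, with none between. The upper values occurred in 4 of 7 vehicle administered Brd1+/- mice, 2 of 8 IMN administered WT mice and 3 of 8 IMN administered Brd1+/- mice. In vehicle administered WT mice 2 of 8 were at or below 44.2 TPM and none reached 84.8 TPM, so that the others lay within the gap of the remaining groups. Dnajc5 was not called in any comparison.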
